A study of Rattus norvegicus with 12 samples.

Results

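Unstimulated cells of the thrombin experiment were compared with unstimulated cells of the 2 TRAP experiments. The comparison uses 6 of the 12 arrays of the study, chosen by their titles as arrays of basal expression. Of these, 2 precede thrombin stimulation, 2 precede TRAP and 2 precede TRAP after pertussis toxin (PTX). All cells were aortic smooth muscle cells in primary culture from newborn rats, grown in MEM with Earle's salts and 10 % fetal calf serum and then kept overnight without serum in medium with 1 % BSA, and the labels name no agent on the 6 arrays. The other 6 arrays hold cells 120 min after thrombin (2 U/ml), TRAP (25 µM) or TRAP after 24 h with PTX (200 ng/ml). Thrombin is a clotting protease that activates receptors by cutting them, TRAP is a peptide that activates such a receptor directly, and PTX blocks G proteins of the Gi family. Whether the unstimulated cells of the PTX experiment had received PTX is not stated, and neither are the rat strain, the sex, the pooling of animals or the passage. No label states that replicates are separate cultures, and p-values then reflect only the spread among these arrays, which may be technical. Each experiment has basal arrays of its own, so that experiment and culture cannot be told apart.

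Smooth muscle cells of the aorta are not fixed in their state. In the vessel wall they make actin, myosin and their regulators for contraction, and in culture they can lower these genes, divide, and make matrix, a change long known as the shift from a contractile to a synthetic phenotype. The coactivator myocardin, with the serum response factor SRF, drives contractile genes, while factors such as Klf5 and Klf4 are linked to the synthetic state. Smooth muscle cells can also take up genes of cartilage and bone, which is known from calcified arteries, or genes of inflammation.

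The label of smooth muscle cells was checked against its markers. Acta2, smooth muscle actin, had signals of 4568 to 4864 in the thrombin experiment and 7322 to 8499.7 in the TRAP experiments, and Tagln, an actin-binding protein also called SM22, 3747 to 4473 and 5026 to 6643. The late marker Myh11, smooth muscle myosin heavy chain, was dim at 15.8 to 39.2 and 37.1 to 65.8, as was desmin (Des) at 15.8 to 29.9 and 20.5 to 52.9. Of 13 endothelial markers on the array 10 never exceeded a signal of 50 on a basal array, among them Pecam1, Kdr and Vwf, and of 14 leukocyte markers 10 never did, among them Ptprc and Cd68. The summed signal of the endothelial markers was 273.7 to 328.9 in the thrombin experiment and 578.7 to 762.9 in the TRAP experiments, mostly through Ptprb (36.5 to 51.3 against 288 to 445). Of the other 2 tested, of 3 in all, Tek was lower (85.7 and 68.2 against 26.5, 46.1, 40.2 and 33.1, -0.83 ± 0.21). Eng was higher (0.52 ± 0.17), and both calls depended on single arrays. The summed signal of the leukocyte markers was 692.6 to 788.8 against 454.1 to 635.5. Schwann cell markers summed to 618.9 to 715.9 against 366.8 to 534.2, with 7 of 10 never above 50, and adipocyte markers to 222.3 to 293.9 against 258.7 to 294.7, with 8 of 10 never above 50. Of the 4 Schwann markers tested only Mbp was called, lower at 233.5 and 153.2 against 42, 41.1, 49.5 and 55.7 (-1.71 ± 0.19). Pericyte markers summed to 1128 to 1195 against 1181 to 1265, with 5 of 9 never above 50, and here Cspg4 (2.79 ± 0.15) and Pdgfrb (0.70 ± 0.10) were higher and Mcam lower (-1.60 ± 0.13). Mcam was at 583 and 571 against 153, 202, 171 and 197, and Cspg4 at 18.9 and 14 against 243, 196, 203 and 191. Cspg4 passed the signal filter through the TRAP experiments alone, so it had to differ. Erythroid markers summed to 74.8 to 78.7 against 36.6 to 65, with all 4 never above 50. Markers of epithelium and mesothelium summed to 4710.1 to 4767 against 3483 to 4064, with 6 of 11 never above 50. Xist, the RNA that coats the inactive X chromosome, was at 1358 and 1152 in the thrombin experiment and at 4261, 3820.2, 2979 and 3449.7 in the TRAP experiments, while the Y-linked gene Uty was at 429 to 525 and 331 to 450. The groups did not overlap in Xist and overlapped in Uty, and the part of these markers in the differences below was not tested.

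The 6 arrays had been scaled to a common mean, and their median signal was 40.2 to 40.4 in the thrombin experiment and 45.5 to 53.4 in the TRAP experiments. The ratio of 3' to 5' probe signals of GAPDH, a sign of RNA integrity, was 1.06 to 1.101 against 1.144 to 1.177, and that of actin 1.376 to 1.45 against 1.352 to 1.504. Their part in the differences was not tested. Correlations of log2 signals were 0.9826 to 0.9914 within the 3 replicate pairs, 0.9791 to 0.9845 between the TRAP and PTX experiments, and 0.9172 to 0.9296 between the thrombin experiment and either of them. Among stimulated cells, replicate 1 of TRAP and replicate 2 of TRAP after PTX had Saa3, a gene of the acute-phase response, at 223 and 238, while their partners were at 22.8 and 20.3. Those arrays therefore did not group by label. On basal arrays the 2 arrays of each experiment lay together in Saa3, although PTX replicate 1 correlated more with TRAP replicate 2 (0.9845) than with its partner (0.9826).

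In limma's test a gene was called when its p, adjusted by Benjamini-Hochberg over all probe sets tested, was below 0.05 and all 4 arrays of the TRAP experiments lay beyond both arrays of the thrombin experiment. Lack of overlap is thus part of the call, and where it is restated below for a called gene it is no further result. Differences are given on the scale log2(signal + 16), as TRAP experiments minus thrombin experiment, with the standard error (n = 4 and 2 arrays). Of 9906 genes tested, 1987 (20.1%) were higher in the TRAP experiments and 1899 (19.2%) were lower, 39.2% in all, and 55.2% did not overlap whatever their p. The median difference over all genes was 0.01. At probe set level 7426 of 18625 were called (39.9%, with 21.5% higher and 18.3% lower), of which 1380 were higher and 542 lower by at least 2-fold. The phenotype lists of contraction, matrix, cartilage, muscle, inflammation and cell division together hold 728 genes, of which 639 had a probe set and 487 were tested. Of these 221 were higher and 78 lower. Near the threshold, the cyclin Ccna2 (adjusted p = 0.0491), Gins3 (0.0488) and Cenpe (0.048) were just inside, and Mef2a (0.0502), Mfap5 (0.052) and Tslp (0.0528) just outside. The plot of differences by gene list shows each list beside the interquartile range of all genes.

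**Figure D1:**
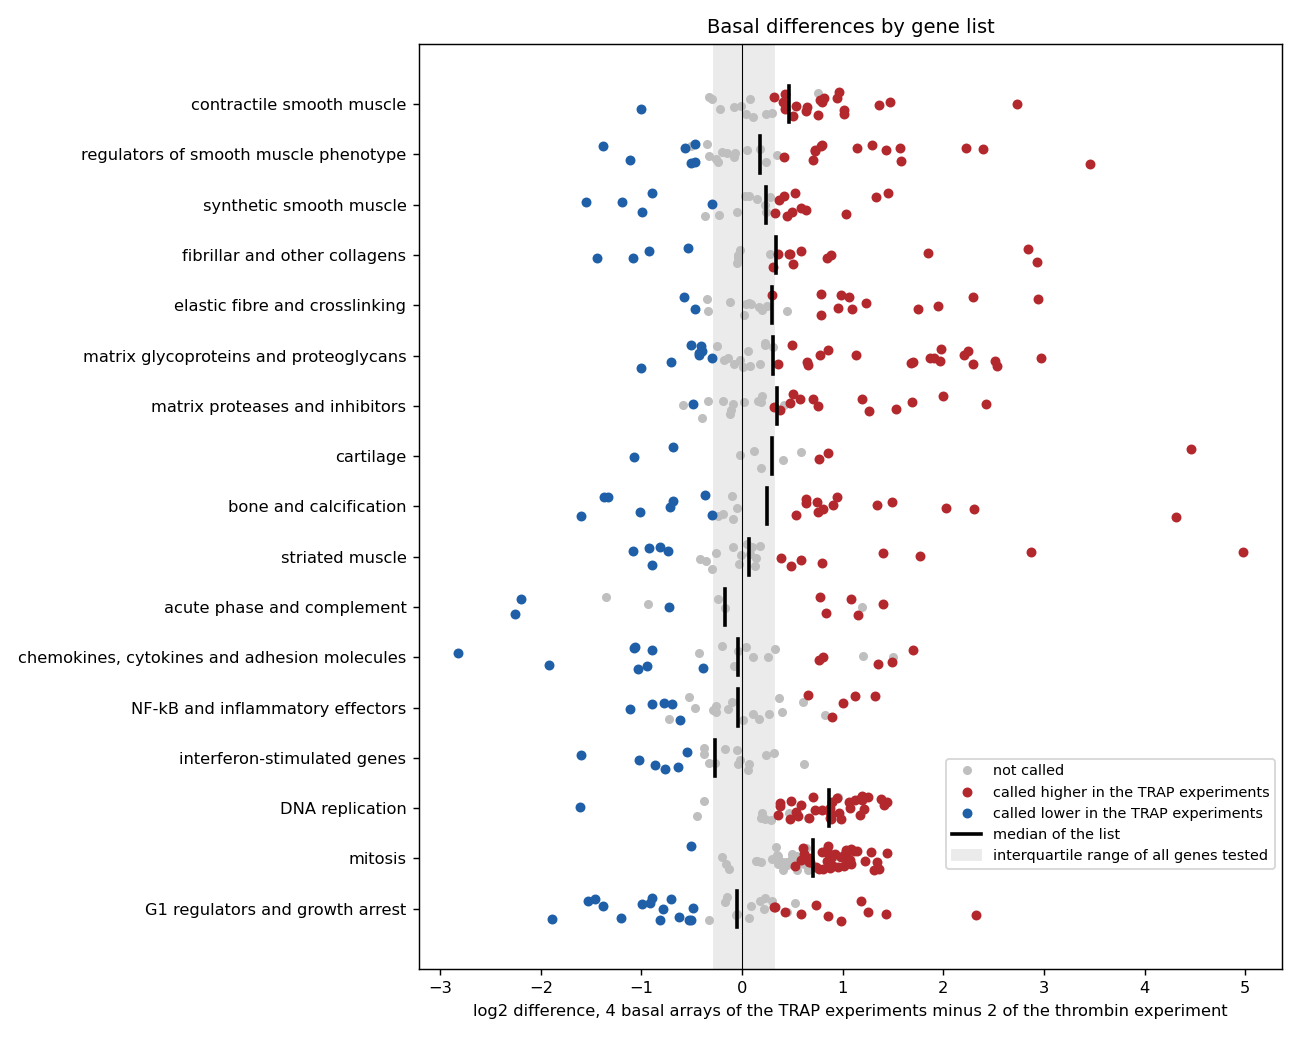
Log2 differences (4 basal arrays of the TRAP experiments minus 2 of the thrombin experiment) of the genes tested in 17 phenotype lists, 1 point per gene, coloured by whether they were called, with the median of each list as a black bar and the interquartile range of all 9906 genes shaded. The lists with the highest medians are DNA replication (0.86) and mitosis (0.70), and the widest single differences are in striated muscle, cartilage and bone genes.

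Contractile genes were mostly higher in the TRAP experiments (40 genes listed, 36 with a probe set and 32 tested; 19 higher and 1 lower, with a median of 0.47). In the order thrombin 1 and 2, TRAP 1 and 2, PTX 1 and 2, Acta2 had signals of 4568 and 4864, 7539 and 8447, and 8499.7 and 7322. All 4 later arrays lay above both thrombin arrays, by 0.75 ± 0.10 (adjusted p = 0.00015). Calponin (Cnn1), which binds actin and inhibits myosin, had 992 and 822 in the thrombin experiment against 1807, 1980, 1823 and 1724, a difference of 1.01 ± 0.10. Myl9, the regulatory light chain of myosin, had 1745 and 1649 against 3199.6, 3922, 3587 and 3044 (1.01 ± 0.11). The groups did not overlap in either gene, and the 4 arrays of the TRAP experiments lay close to each other. Leiomodin (Lmod1), which starts actin filaments, was at 67.9 and 63.9 against 223, 201, 201 and 219 (1.47 ± 0.13). Integrin alpha 8 (Itga8), a receptor of mesenchymal cells, was at 254 and 249.7 against 1723, 1849.9, 1621 and 1859.7, the largest difference of the list at 2.73 ± 0.10 (adjusted p = 1.2e-08).

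Smaller differences were found in Tagln (0.51 ± 0.13, or 0.38 with adjusted p = 0.108 without thrombin replicate 2), Tpm2, a tropomyosin (0.65), Fhl1 (0.81), the actin gene Actg2 (0.64) and Pln, phospholamban, the brake on the calcium pump of the reticulum (0.96). Tropomyosin 1 (Tpm1), whose 6 probe sets did not all point one way, and vinculin (Vcl) overlapped between the groups, at 0.08 and 0.04. The exception was Ppp1r14a, an inhibitor of myosin phosphatase also called CPI-17, which was lower with 511 and 439 against 188, 271, 269 and 201 (-1.0 ± 0.16, adjusted p = 0.000491). Myh11 measured 0.75 ± 0.26 with an adjusted p of 0.0399 but was not called, since PTX replicate 2 (37.1) lay below thrombin replicate 2 (39.2). Members of the actin and tropomyosin families have near-identical copies, so signal may be shared between their probe sets.

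**Figure D2:**
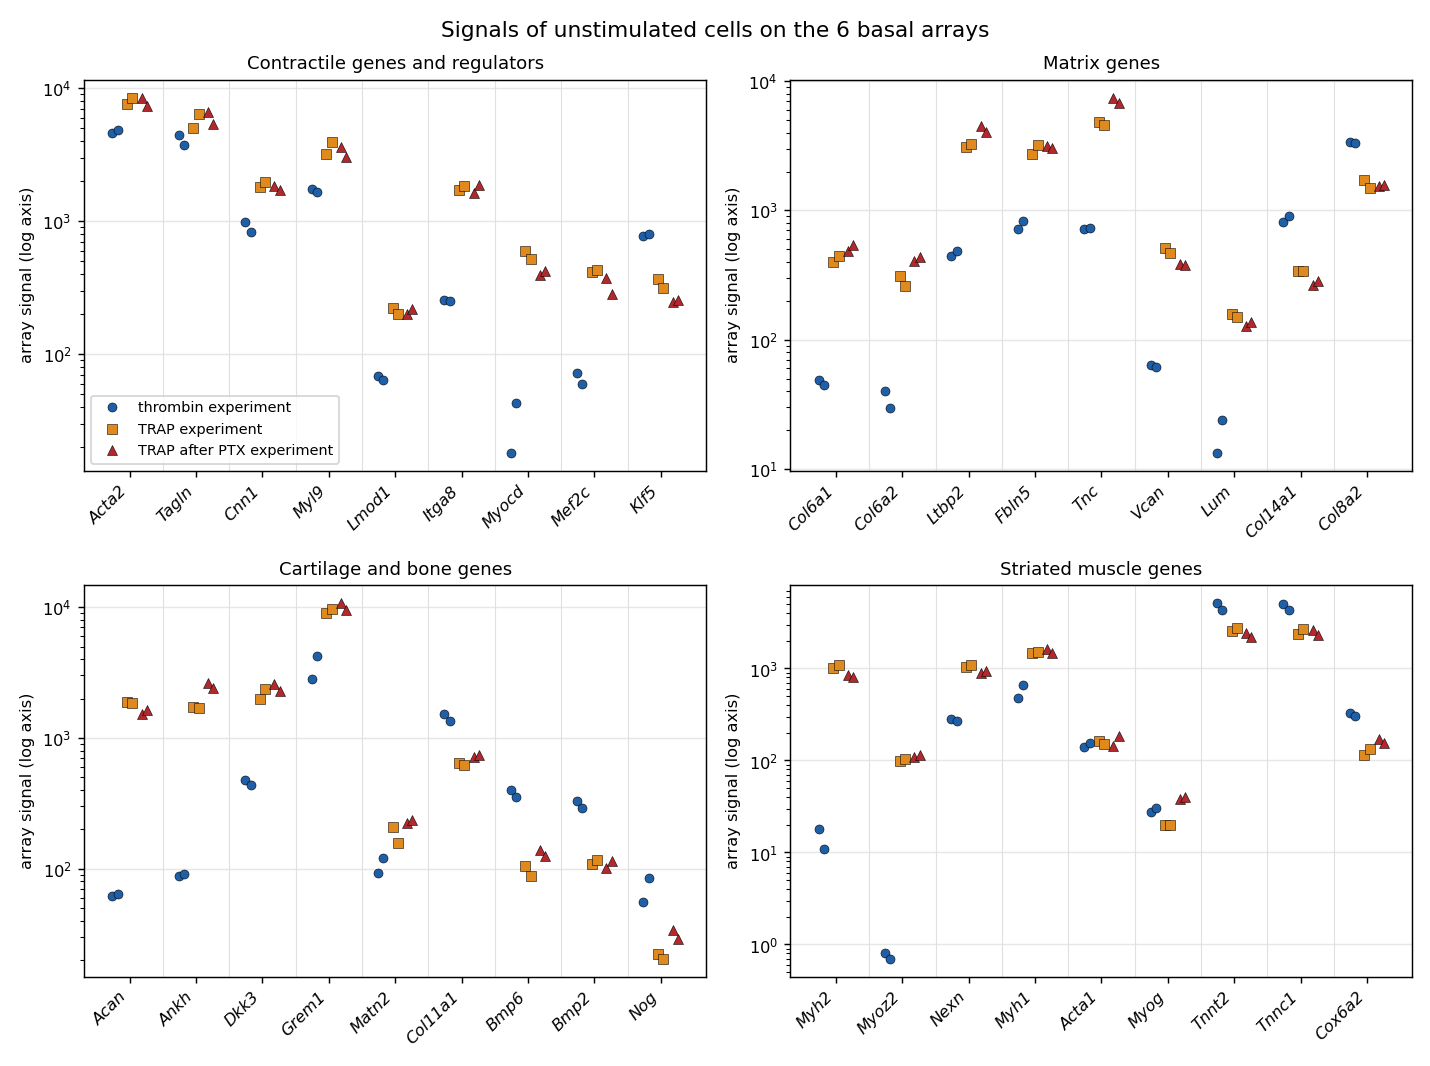
Array signals on a log axis of 36 named genes on the 6 basal arrays, 1 point per array, with circles for the thrombin experiment, squares for the TRAP experiment and triangles for the TRAP after PTX experiment. The 2 arrays of an experiment lie near each other in most genes. Myoz2, Myh2, Acan and Ankh show the widest gaps between circles and the rest, while Acta1 and Myog overlap.

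Among the regulators of the smooth muscle state 14 of 33 tested were higher and 6 lower (41 listed, median 0.18). Myocardin (Myocd) had signals of 18 and 43 in the thrombin experiment and of 597, 520.2, 395 and 421 in the TRAP experiments. The lowest of the 4 was far above both thrombin arrays, and the difference was 3.46 ± 0.22 (adjusted p = 5.77e-07). SRF itself overlapped between the groups, with 704 to 863 against 604 to 804 (-0.20 ± 0.13, adjusted p = 0.252). The muscle factor Mef2c was higher with 72.6 and 59.5 against 412, 426, 370.4 and 285 (2.23 ± 0.16), and so was the SRF coactivator Mrtfa (0.79 ± 0.10). Klf5, a factor of the dividing and synthetic state, was lower with 767 and 799 against 364, 314, 246 and 256 (-1.38 ± 0.15, adjusted p = 2.98e-05), whereas Klf4 was higher (0.72 ± 0.12).

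Of ligands and receptors in this list, the growth factors Tgfb2 (1.14) and Tgfb3 (1.57) and the PDGF receptors Pdgfra (2.39) and Pdgfrb (0.70) were higher. Tgfb3 was at 2183 to 2613 against 6564 to 7603 and Pdgfra at 48.2 to 71.1 against 369 to 390, without overlap. The ligand Pdgfa (-0.51) and Smad3, a transducer of TGF-beta (-1.11), were lower. In the Notch pathway the ligand Jag1 (1.43), the receptor Notch1 (0.78) and the target Hey2 (1.58) were higher, the target Hes1 was lower (-0.57), and Notch3 was not called (0.35). Genes known from synthetic smooth muscle went both ways, 11 higher and 5 lower of 25 (34 listed, median 0.24): S100a4 (1.45) and non-muscle myosin Myh9 (1.03) were higher, while the growth factor Igf2 (-1.55) and Igfbp2 (-1.19), which binds it, were lower.

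Matrix genes showed some of the widest differences. Of 20 collagen genes tested of 23, 11 were higher and 4 lower (median 0.34), and 6 were higher when thrombin replicate 2 was left out. Col6a1, a chain of the collagen VI of microfibrils around cells, had 49.2 and 44.8 in the thrombin experiment against 400.1, 441, 483 and 539, and its partner chain Col6a2 had 39.8 and 29.6 against 309, 263, 406 and 436. Both were dim on the thrombin arrays and several times brighter on all 4 others, with differences of 2.93 ± 0.13 and 2.84 ± 0.19 (adjusted p = 7.06e-08 and 1.06e-06). The main chains of fibrillar collagen differed less. Col1a1 was not called (0.28 ± 0.13, adjusted p = 0.113), while Col1a2 (0.47), Col3a1 (0.51) and Col5a1 (0.84) were higher. Collagens in the opposite direction were Col14a1, which sits on fibrils, with 813 and 908 against 339.9, 342, 263 and 287 (-1.44 ± 0.13), and Col8a2, a network collagen of vessels, with 3382 and 3296 against 1721, 1484, 1547 and 1561 (-1.08 ± 0.09). The other lower collagens were Col18a1 (-0.92) and Col4a5 (-0.54).

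Of 25 genes of elastic fibres and crosslinking tested (30 listed), 12 were higher and 2 lower (median 0.30). Elastin itself was too dim to be tested, at 13.5 to 22.2 against 8 to 19.3. Ltbp2, a binding protein of microfibrils, was at 447 and 483 against 3117, 3237, 4502 and 4018 (2.94 ± 0.14), Ltbp1, which holds latent TGF-beta in the matrix, at 434 to 512 against 2147 to 2547 (2.29), and fibulin 5 (Fbln5), which helps elastin assemble, at 717 to 825 against 2745 to 3184 (1.95). None of the 3 overlapped. Ltbp4, from the same family as Ltbp1 and Ltbp2, was lower (-0.58 ± 0.09), as was P4ha1, which hydroxylates collagen (-0.47 ± 0.12).

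Of 39 matrix glycoproteins and proteoglycans tested (53 listed), 19 were higher and 8 lower (median 0.31), or 5 lower without thrombin replicate 2 or PTX replicate 2. Tenascin C (Tnc), a glycoprotein of remodelled matrix, had 718 and 725 against 4809, 4543, 7468 and 6802, so that the PTX experiment was highest and the thrombin experiment lowest (2.97 ± 0.18). Versican (Vcan), a large proteoglycan of the vessel wall, was at 63.9 and 61.9 against 515, 470.3, 383 and 379 (2.51 ± 0.14). Periostin (Postn) was at 2052 to 2273 against 7927 to 9586 (1.98), and the small proteoglycans Dcn (1.68) and Lum (2.21) were higher as well. Lum passed the signal filter through the TRAP experiments alone, so it had to differ. The syndecan Sdc4 (-1.0 ± 0.10) and Fmod (-0.71 ± 0.11), a collagen-binding proteoglycan, were lower. Fibronectin (Fn1) overlapped, at 6945 to 8808 against 8082 to 9603 (0.18 ± 0.12, adjusted p = 0.247). Osteopontin (Spp1), often used as a marker of the synthetic state, was slightly lower (-0.30 ± 0.10, adjusted p = 0.0351) and lost that call without thrombin replicate 2 (-0.16, adjusted p = 0.316) and without any single array of the TRAP experiments.

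Among proteases and inhibitors 13 of 26 tested were higher and 1 lower (38 listed, median 0.35), or 7 higher without thrombin replicate 1. The lower gene was the lysosomal protease Ctsl (-0.49 ± 0.09). Serpine2, an inhibitor of thrombin and plasminogen activators, had 127 and 177 in the thrombin experiment against 776, 882, 912 and 939 (2.42 ± 0.13, adjusted p = 2.4e-07), with no overlap. The aggrecanase Adamts1 was higher at 995 to 1071 against 2897 to 3101 (1.53 ± 0.09). Another aggrecanase, Adamts5, split within the TRAP experiments, with 733 and 669 on the TRAP arrays and 243 and 268 on the PTX arrays against 152 and 206 (1.19 ± 0.38, adjusted p = 0.0278, or 0.201 and 0.0745 without thrombin replicate 1 and 2, and 0.0527 without TRAP replicate 2).

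Several of these matrix genes are also markers of adventitial fibroblasts, the cells of the outer vessel wall. Of 15 such markers listed 10 were tested, 7 were higher and none was lower. Thy1 was at 85.7 and 96.4 against 636, 766, 636 and 638 (2.68 ± 0.12), and Dcn, Lum and Pdgfra, given above, stand on this list too. The summed signal of its 14 members on the array was 7287 to 7737 in the thrombin experiment and 12706 to 13261.4 in the TRAP experiments, while 5 of them, Dpt, Pi16, Ly6c, Clec3b and Entpd2, never exceeded 50. Their part in the matrix differences was not tested. In RNA from a whole culture, fewer cells of a type and less RNA per cell cannot be told apart.

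Few cartilage genes were measurable (38 genes listed, 29 with a probe set and 10 tested, with 3 higher and 2 lower). For so short a list these counts were near the shares over all genes, 20.1% higher and 19.2% lower. Aggrecan (Acan), the main proteoglycan of cartilage, had signals of 61.7 and 64.2 in the thrombin experiment and 1879, 1842, 1530 and 1637 in the TRAP experiments. The groups were far apart, and the difference was 4.46 ± 0.11 (adjusted p = 2.22e-09). It was the second largest of all genes tested at a pseudocount of 16. Both kept probe sets of Acan pointed the same way. Matrilin 2 (Matn2), a matrix protein, and Pth1r, the receptor of parathyroid hormone, were the other higher genes (0.85 ± 0.17 and 0.76 ± 0.16). Col2a1, the cartilage collagen, was too dim to be tested, at 8.8 to 30.2 against 16.2 to 22.4, as were the matrix link protein Hapln1 (10.8 to 11.4 against 9.8 to 28.2) and the factor Sox6 (17.5 to 28.7 against 11.6 to 16.3). Comp overlapped (19.7 to 34.9 against 18 to 38.4). Col11a1, a fibril collagen shared by cartilage and other tissues, was lower with 1533 and 1348 against 643, 619, 713 and 739.5 (-1.07 ± 0.11), and so was the receptor Fgfr3 (-0.69 ± 0.10). Sox9, the master factor of cartilage, is on no probe set with a single symbol used here.

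Of 26 genes of bone and calcification tested (43 listed), 13 were higher and 8 lower (median 0.24). Ankh, which exports pyrophosphate, an inhibitor of mineral, had 87.2 and 91.2 against 1707, 1695, 2626 and 2406 (4.31 ± 0.17, adjusted p = 2.26e-08). Enpp1, which makes pyrophosphate, was higher by less (0.74 ± 0.19), and the phosphate carrier Slc20a2 was higher (0.90 ± 0.11) while Slc20a1 was not called (-0.19 ± 0.09). BMPs, which induce bone, were lower where they passed the test: Bmp2 was at 328 and 290.3 against 108, 116, 100.2 and 114 (-1.37 ± 0.13), Bmp6 at 398 and 354 against 105, 88.3, 138 and 125 (-1.60 ± 0.16), and Bmp4 differed by -0.37 ± 0.11. Their extracellular inhibitors went both ways. Gremlin (Grem1) was higher with 2799 to 4203 against 8968 to 10723 (1.49 ± 0.14) and chordin (Chrd) by 0.75 ± 0.19, while noggin (Nog) was lower (-1.01 ± 0.23). Of the Id genes, targets of BMP, Id4 (2.03) and Id3 (0.64) were higher, Id1 was lower (-0.69) and Id2 was not called (-0.09). Matrix Gla protein (Mgp), an inhibitor of calcification, overlapped (154 to 225 against 149 to 232). Alpl, Ibsp and Bglap, markers of bone-forming cells, were too dim to be tested, with signals of at most 11.9 on these 6 arrays.

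Striated muscle genes were mostly too dim (79 genes listed, 69 with a probe set and 26 tested), and those tested went both ways, 8 higher and 5 lower (median 0.07), or 5 higher without thrombin replicate 1. Of all genes 20.1% were higher and 19.2% lower. Myh2 is a myosin heavy chain of fast skeletal muscle. Its signals were 17.8 and 11 in the thrombin experiment and 1015, 1098, 847 and 811 in the TRAP experiments, a difference of 4.98 ± 0.15. It was the largest difference of all genes tested at a pseudocount of 16, but its thrombin signals were dim, and with a pseudocount of 64 it was 3.67, below Acan at 3.81 and Ankh at 3.80. Myh1, a close paralog, was at 481 and 665 against 1479, 1523, 1621 and 1462 (1.4 ± 0.12), and since these myosin genes share long stretches of sequence, how far either probe set reads the other gene is uncertain. Myoz2, a protein of the sarcomere's Z-disc, was at 0.8 and 0.7 against 99.1, 105, 109 and 115 (2.87 ± 0.17). Myh2 and Myoz2 passed the filter on low signals through the TRAP experiments alone, so they had to differ. The same holds, among others, for Lum, S1pr1, Selp and Cspg4. It also holds for Col15a1 and Orc1, with thrombin means of 4.98 and 5.04 in log2, counted among the higher collagen and replication genes. Nexn, an actin-binding Z-disc protein also found in smooth muscle, was higher as well, at 271 to 285 against 894 to 1085 (1.77 ± 0.11).

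The 5 lower genes, a count near the share over all genes, include parts of the thin filament. Cardiac troponin T (Tnnt2) had 5118 and 4327 in the thrombin experiment against 2569.9, 2740, 2447 and 2195 (-0.92 ± 0.11), and troponin C (Tnnc1) 5079 and 4281 against 2358, 2660, 2644 and 2337 (-0.90 ± 0.10). Neither overlapped between the groups. Cox6a2, a respiratory subunit of striated muscle, was lower too (-1.08 ± 0.15), as were the muscle enolase Eno3 (-0.74 ± 0.12) and the calcium pump Atp2a1 (-0.82 ± 0.19; adjusted p = 0.0664 without thrombin replicate 1). Skeletal actin (Acta1) overlapped at 140.4 to 153 against 143 to 183 (0.10 ± 0.14), and so did the dim myogenic factor Myog, at 27.5 to 30.2 against 19.9 to 40.3. Myod1, which starts the skeletal program, was at 1.2 to 1.5 against 0.4 to 9.8 and was not tested.

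Most genes of DNA replication and mitosis were higher in the TRAP experiments. Of 44 genes of DNA replication tested (51 listed), 34 were higher and 1 lower, with a median of 0.86. Of 66 mitosis genes tested (75 listed), 39 were higher and 1 lower, with a median of 0.70. Mki67, which coats mitotic chromosomes and is used as a marker of dividing cells, had signals of 334 and 258 in the thrombin experiment, 1096 and 926 in the TRAP experiment and 515 and 608 in the PTX experiment. The 3 experiments did not overlap, with the thrombin experiment lowest and the TRAP experiment highest (1.31 ± 0.25, adjusted p = 0.00155). Top2a, the topoisomerase that untangles chromosomes, showed the same order with 203 and 306, 909 and 771 and 474 and 565 (1.34 ± 0.23). The helicase subunit Mcm6, which opens DNA at origins, had 194 and 188, 579 and 561 and 391 and 399 (1.25 ± 0.16), and Hells, a chromatin remodeller of S phase, 55.9 and 76.4, 288 and 223 and 143 and 193 (1.44 ± 0.22). The lower mitosis gene was Cks1b, a partner of cyclin-dependent kinases (-0.51 ± 0.14). The single lower gene of replication was Pola2, a subunit of DNA polymerase alpha, with 1740.4 and 1428 against 539, 594, 446 and 463 (-1.61 ± 0.13).

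The counts depended on single arrays. The mitosis list had 18 higher genes without thrombin replicate 1 and 21 without replicate 2, and the replication list 22 and 24. With both PTX arrays left out the counts were 60 and 39, and with both TRAP arrays left out 24 and 24. Set against the thrombin experiment, whose arrays both differences share, the TRAP experiment measured 1.73 and the PTX experiment 0.90 for Mki67, 1.68 and 1.01 for Top2a, and 1.50 and 0.99 for Mcm6. Compared directly, the PTX experiment was lower than the TRAP experiment in 38 of 66 mitosis genes and in 3 of 44 replication genes, where 0.697% of all genes were lower. The median was -0.73 for mitosis and -0.42 for replication. Ttk, a kinase of the spindle checkpoint, fell from 262 and 233 to 85.3 and 76.3 (-1.45 ± 0.18, adjusted p = 0.00398). Stimulated arrays did not repeat this split by label. There Mki67 was at 527 and 900 on TRAP 1 and 2 and at 943 and 539 on PTX 1 and 2. Ccna2 was at 384 and 630 and at 655 and 284 in the same order. That count of 38 was 0 and 7 without TRAP replicate 1 and 2, 13 and 5 without PTX replicate 1 and 2, 0 with all 12 arrays in 1 fit and 1 without the intensity trend, while the median stayed between -0.79 and -0.63 over these alternatives. The 3 replication genes were Mcm4, Fen1 and Rrm1, and none was called without any 1 of the 4 arrays.

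The promoters of these genes were read to show sequence known from cell cycle control. E2F factors act on genes of S phase through sites that hold the letters TTTCCCGC or TTTGGCGC, and the CHR element of many G2 and mitosis genes holds TTTGAA. Both strands were searched from 250 bases before to 50 bases after the start in the RefSeq promoters of build GRCr8. The E2F letters were in 12 of 32 promoters matched to the 34 higher replication genes (37.5%), in 3 of 8 of those not called (37.5%) and in 1.53% of all 27457 promoters. The CHR letters were in 20 of 34 promoters matched to the 39 higher mitosis genes (58.8%), in 16 of 22 of those not called (72.7%) and in 18.1% of all promoters. The following stretches lie before the start, with the matching letters in capitals, for the replication genes Hells at chr1:246114080-246114127 on the plus strand and Mcm6 at chr13:42404464-42404511 on the minus strand, and for the mitosis genes Top2a at chr10:84473094-84473135 on the minus strand and Mki67 at chr1:199952667-199952730 on the minus strand, chosen because their values are given above.
Hells: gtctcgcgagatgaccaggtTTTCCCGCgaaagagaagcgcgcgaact
Mcm6: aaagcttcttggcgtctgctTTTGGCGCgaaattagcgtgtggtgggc
Top2a: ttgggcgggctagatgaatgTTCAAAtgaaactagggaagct
Mki67: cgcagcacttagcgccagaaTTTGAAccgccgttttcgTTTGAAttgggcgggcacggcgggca
In Top2a the letters are those of the other strand. A match of letters shows neither binding nor use of the site.

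**Figure D3:**
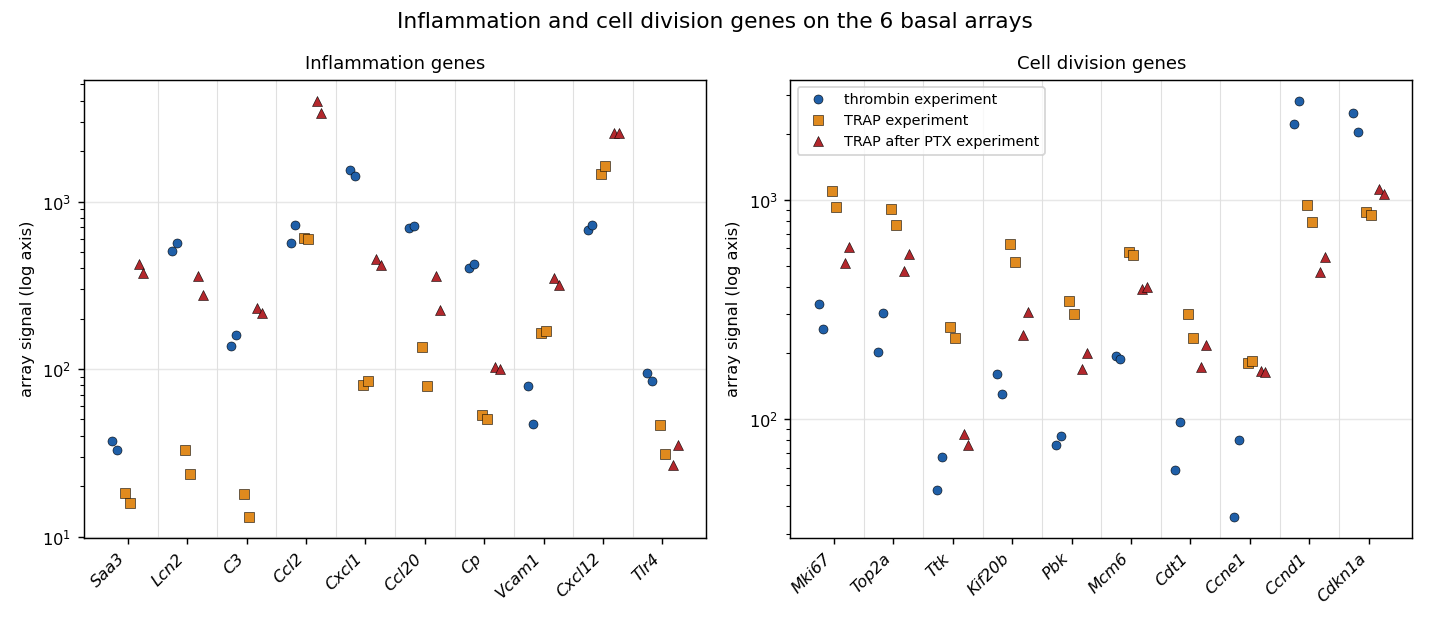
Array signals on a log axis of 10 inflammation genes and 10 cell division genes on the 6 basal arrays, 1 point per array, with circles for the thrombin experiment, squares for the TRAP experiment and triangles for the TRAP after PTX experiment. In Saa3, Lcn2, C3 and Cxcl1 the squares are lowest, and in Mki67, Top2a and Ttk they are highest, while Ccnd1 and Cdkn1a are highest in the thrombin experiment.

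Regulators of G1 and growth arrest went both ways, 11 higher and 15 lower of 39 tested (49 listed, median -0.05), or 5 and 14 without thrombin replicate 1 and 7 and 14 without replicate 2. The D cyclins carry growth signals to the cell cycle. Ccnd1 was lower with 2216 and 2836 against 949, 790.4, 468 and 550.1 (-1.89 ± 0.23, adjusted p = 7.57e-05) and Ccnd2 was lower with 2719.6 and 2431 against 909, 996, 824 and 793 (-1.53 ± 0.11), with no overlap, while Ccnd3 was not called (0.09 ± 0.11). The E cyclins that start S phase were higher, Ccne1 by 1.43 ± 0.21 and Ccne2 by 1.18 ± 0.24. Inhibitors of cyclin-dependent kinases were lower in Cdkn1a, also called p21, with 2483 and 2044 against 879, 857, 1122 and 1058 (-1.20 ± 0.13), in Cdkn2b (-1.38 ± 0.15) and in Cdkn2a (-0.91 ± 0.19), while Cdkn2d was higher (0.59 ± 0.17) and Cdkn1b (0.22 ± 0.12) and Cdkn2c (-0.33 ± 0.15) were not called. The p53 targets Mdm2 (-0.79) and Ccng1 (-0.53) and the stress genes Gadd45a (-0.82) and Gadd45g (-0.90) were lower too, whereas Gadd45b (0.33) and the p53 target Sesn2 (0.43) were higher. Myc was higher with 109 and 139 against 717, 729, 692 and 590.2 (2.32 ± 0.13, adjusted p = 2.24e-07), whereas Mycn was lower (-1.46 ± 0.23).

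Inflammation genes did not move as a group, and the 2 TRAP experiments differed among themselves. The counts below stand beside 20.1% higher and 19.2% lower over all genes. Of the acute-phase and complement genes 5 were higher and 3 lower of 13 tested (26 listed, median -0.17), and 1 was higher without thrombin replicate 1 or without replicate 2. Saa3 had signals of 37.4 and 33 in the thrombin experiment, 18.1 and 15.9 in the TRAP experiment and 421 and 375 in the PTX experiment. The thrombin arrays thus lay between the others, and the difference of 1.19 ± 0.95 was not called (adjusted p = 0.349). Complement C3 was at 138 and 159.9, 18 and 13 and 229.9 and 215, with the TRAP experiment lowest and the PTX experiment highest (-0.93 ± 0.77, adjusted p = 0.369). Lipocalin 2 (Lcn2), which withholds iron from bacteria, was at 509.7 and 566, 32.8 and 23.5 and 360.2 and 275. It was highest in the thrombin experiment and called lower in the others (-2.20 ± 0.76, adjusted p = 0.039), but not without thrombin replicate 1 or 2 (adjusted p = 0.155 and 0.169) or without TRAP replicate 1 or 2 (0.0555 and 0.0609). Ceruloplasmin (Cp), the copper carrier, was lower on all 4 arrays, with 399.7 and 424 against 53, 50, 103 and 99.6 (-2.26 ± 0.24), and Cd14, a receptor part for lipopolysaccharide, was lower as well (-0.73 ± 0.11). The complement proteases C1r (0.83 ± 0.25) and C1s (1.15 ± 0.28) were higher, with C1s at 529.6 and 531, 806 and 848 and 1745 and 1687, and neither kept its call without a thrombin replicate (adjusted p = 0.0592 and 0.0534 for C1s). Serping1, the inhibitor of C1, was higher (1.4 ± 0.20). Haptoglobin (Hp, 0.77) and Lbp (1.08) were called higher and lost the call without either thrombin replicate (adjusted p = 0.0968 and 0.0618 for Hp, 0.147 and 0.155 for Lbp), and Lbp also without either PTX replicate (0.0675 and 0.0748).

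Of chemokines, cytokines and adhesion molecules 5 were higher and 8 lower of 23 tested (48 listed, median -0.04), or 3 higher without either thrombin or either PTX replicate. Of all genes 20.1% were higher and 19.2% lower, so the higher count of this list lay near the share over all genes. The neutrophil chemokine Cxcl1 had 1552 and 1412 in the thrombin experiment, 80.6 and 85.4 in the TRAP experiment and 456 and 417 in the PTX experiment. It was highest in the thrombin experiment without overlap (-2.82 ± 0.57, adjusted p = 0.00239). Ccl20 was lower in the same order, 697 and 709, 135 and 79.2 and 358 and 226 (-1.92 ± 0.39). The adhesion molecules parted. Icam1 was lower with 3611 and 3176 against 1436, 1472, 2287 and 2189 (-0.90 ± 0.18) and Vcam1 higher with 79.7 and 47.2 against 164, 169, 349.7 and 318 (1.70 ± 0.29). Cxcl12, a chemokine that stromal cells make at rest, was higher (1.49 ± 0.21), and Tlr4, the receptor of bacterial lipopolysaccharide, was lower (-1.07 ± 0.20). The cytokine Il6 (0.80), the platelet selectin Selp (1.35) and the receptor Il1rl1 (0.76) were the other higher genes. The monocyte chemokine Ccl2 had 564 and 728, 608 and 598 and 4004 and 3397. Its thrombin and TRAP arrays overlapped and the PTX arrays stood above both (1.20 ± 0.67, adjusted p = 0.179).

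Of NF-kB genes and inflammatory effectors, 5 were higher and 5 lower of 26 tested (30 listed), where 20.1% of all genes were higher and 19.2% lower. The counts were 2 and 1 lower without thrombin replicate 1 and 2, 3 lower without either TRAP replicate and 8 higher without TRAP replicate 1. The NF-kB inhibitor Tnfaip3 was lower (-1.11 ± 0.31; adjusted p = 0.0136, and 0.157 without thrombin replicate 2). Bcl3 (-0.90), Irf1 (-0.78), Zc3h12a (-0.70) and Gch1 (-0.62) were lower too, of which the first 3 depended on single arrays. Irf1 lost its call without thrombin replicate 2 (adjusted p = 0.0737). Bcl3 and Zc3h12a lost theirs without either thrombin or either TRAP replicate, with adjusted p of 0.0551 to 0.27 and 0.0811 to 0.201, and Zc3h12a also with the replicate block (0.0566). Ptgs2, the inducible cyclooxygenase, was higher with 389 and 428 against 1050.4, 946, 995 and 1188 (1.32 ± 0.11), and Ptgs1 (0.89) and prostacyclin synthase Ptgis (1.12), Tnfaip6 (1.00) and Cyba (0.66) were higher too. No gene stimulated by interferon was higher and 6 of 19 tested were lower (36 listed, median -0.27), such as the GTPase Gbp2 with 143 and 209 against 46.8, 26.4, 55 and 65.1 (-1.60 ± 0.25) and Ifit2 (-0.87 ± 0.15). That count was 3 without thrombin replicate 1.

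Compared directly, the PTX experiment was higher than the TRAP experiment in 8 of 13 acute-phase genes, 8 of 23 chemokine and cytokine genes and 4 of 26 NF-kB genes, where 0.454% of all genes were higher. None of these was lower, and no contractile or collagen gene was called in this comparison. Saa3 was higher by 3.65 ± 0.18 (adjusted p = 1.73e-06), C3 by 2.92 ± 0.17 and Ccl2 by 2.58 ± 0.13. Over all genes 45 were higher and 69 lower (1.15%), at probe set level 158 of 18625 (0.848%, with 0.301% higher and 0.548% lower), and 2117 had an unadjusted p below 0.05. The 158 fell to 22 without TRAP replicate 1 and to 8 with all 12 arrays in 1 fit, and the 8 acute-phase genes were 7 or 8 whichever array was left out and 0 in that fit. The chemokine genes were 4 without either TRAP replicate and 5 without either PTX replicate. The NF-kB genes, Nfkbia, Nfkbiz, Cebpd and Sod2, were 1 without TRAP replicate 1.

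Of receptors and channels of the vessel wall 11 were higher and 5 lower of 29 tested (64 listed, median 0.30), or 3 lower without thrombin replicate 1. The thrombin receptor F2r, whose own ligand sequence TRAP mimics, had 3606 and 3314 in the thrombin experiment against 2917, 3267, 2768 and 2748, and was not called (-0.24 ± 0.10, adjusted p = 0.0739). F2rl1, a protease-activated receptor cut by trypsin-like enzymes, was lower with 194 and 136 against 59.2, 57.7, 72.3 and 44.9 (-1.27 ± 0.19, adjusted p = 0.000367). Gnai1, a Gi subunit that PTX modifies, was lower with 140.4 and 128 against 40.2, 41.7, 27.9 and 38.8 (-1.51 ± 0.18), and Gnai2 was not called (-0.22 ± 0.10). The other lower genes were the G protein subunits Gnaq (-0.63) and Gna12 (-0.41) and the receptor Npr3 (-0.59). Rgs16, which ends signalling of Gi and Gq, was higher with 39.5 and 41.3 against 368, 532, 570 and 459 (3.12 ± 0.16). The calcium channel Cacna1c (1.74), the cation channel Trpc6 (1.64), the vasopressin receptor Avpr1a (1.81) and the lipid receptor S1pr1 (2.17) were higher.

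Of factors that mark position and development 6 were higher and 5 lower of 26 tested (72 listed, median 0.11), or 3 higher without thrombin replicate 1 and 3 lower without replicate 2. With 42.3% called, the list was near the share over all genes (39.2%, with 20.1% higher and 19.2% lower). The homeobox factor Meox2 was at 45.4 and 55.5 against 638, 655, 506 and 468 (3.12 ± 0.15), while Hoxa10 (-1.15 ± 0.15), Wt1 (-1.41 ± 0.16) and Foxc1 (-1.38 ± 0.16) were lower, with Wt1 at 137 and 152 against 43.1, 42.6, 45.6 and 45.9. Tbx18 (-0.71) and Meis2 (-0.59) were lower too, but not called without thrombin replicate 2 (adjusted p = 0.0745 and 0.118). Hoxa5 and Hoxb2 were not called (-0.24 and 0.00). Wt1 is also a marker of mesothelium, as is Lrrn4 (-1.07 ± 0.09), and the mesothelial marker Msln did not pass the test (0.04 ± 0.10). Among the genes with the largest differences outside the phenotype lists, Kcnk2, a potassium channel opened by stretch, was at 50.8 and 57.6 against 1208, 1201, 1478 and 1508 (4.27 ± 0.12), and tenascin N (Tnn) at 83.9 and 56 against 1251, 1141, 2162 and 2001 (4.23 ± 0.24). In the other direction Prnd, a relative of the prion protein, was at 1492 and 1398 against 123, 104, 296 and 285 (-2.88 ± 0.34), and Arg1, the arginase of the urea cycle, at 234 and 192 against 20.5, 27, 27.5 and 27.2 (-2.46 ± 0.18).

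The same comparison was made on the 6 arrays of stimulated cells, which share no array with the basal ones. There the stimulus and the experiment cannot be told apart. Of 9906 genes 2216 (22.4%) were higher and 1951 (19.7%) lower in the TRAP experiments, 42.1% in all. The genes called higher in both settings numbered 1520, which is 76.5% of the basal and 68.6% of the stimulated list, and those called lower in both 1367, which is 72% and 70.1%. Genes called higher in one setting and lower in the other numbered 6 and 8. Of the 221 and 78 phenotype genes called higher and lower on basal arrays, 194 and 59 were called the same way on stimulated arrays. Myh2 was at 13.6 to 18.6 against 896 to 1053 there (4.93), Acan at 73.7 to 93.1 against 1227 to 2584 (4.23) and Myocd at 31.7 to 45.2 against 406 to 660.3 (3.25). Myh2 passed the filter through the TRAP experiments alone, so its value here adds no support. By list, 16 of 32 contractile genes, 11 of 20 collagen genes, 31 of 44 replication genes and 37 of 66 mitosis genes were called higher in both settings. On stimulated arrays the contractile list had 16 higher and 6 lower genes (median 0.29), against 19 and 1 on basal arrays (median 0.47). Cxcl1, by contrast, was at 4895 to 4954 against 1238 to 6275 and was not called (-0.85). The stimulated count of 8015 probe sets (43%) was 5046 without stimulated thrombin replicate 1. On those arrays the mitosis list had 50 higher genes, which were 22 and 29 without thrombin replicate 1 and 2, and the replication list had 33, which were 20 without thrombin replicate 2.

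**Figure D4:**
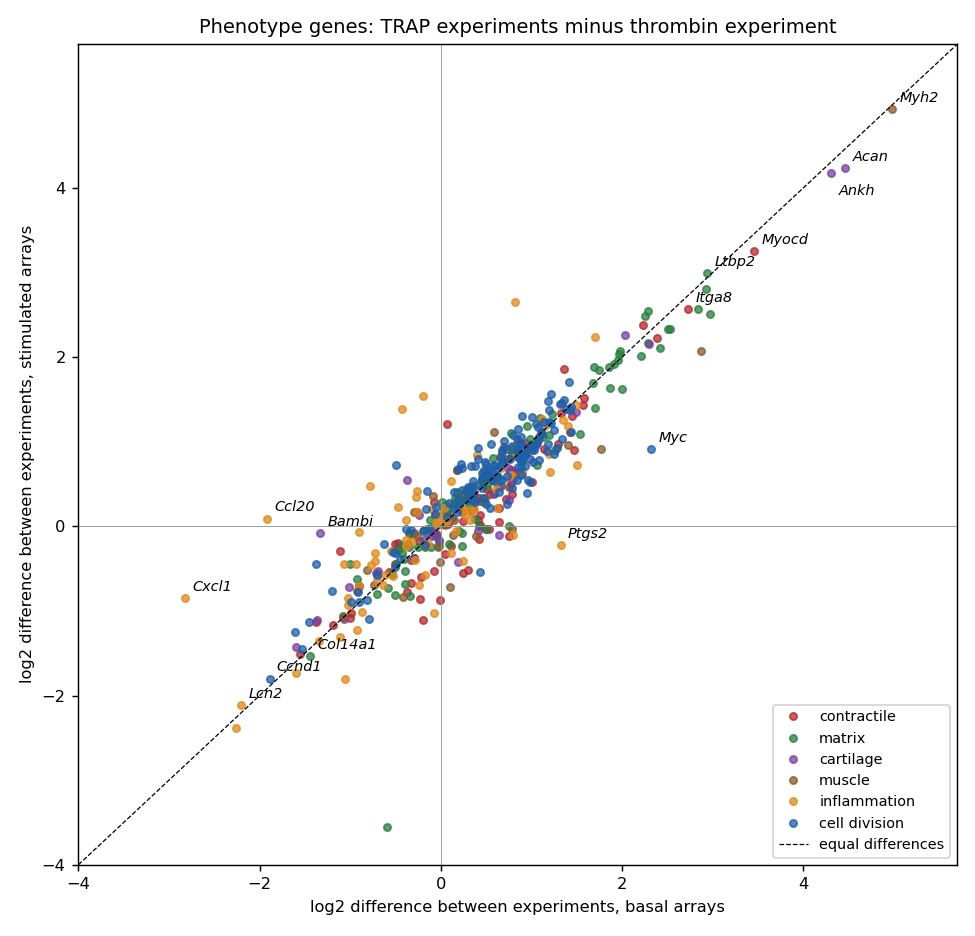
Log2 differences between the TRAP experiments and the thrombin experiment for the 487 phenotype genes tested, on basal arrays (horizontal axis) and on stimulated arrays (vertical axis), 1 point per gene, coloured by theme (bone genes are counted with cartilage), with a dashed line where both are equal. Myh2 (4.98 and 4.93) and Acan (4.46 and 4.23) lie near the line, while Myc (2.32 and 0.91), Ptgs2 (1.32 and -0.22) and Cxcl1 (-2.82 and -0.85) lie off it. The lowest point is the protease inhibitor Serpinb2 (-0.59 and -3.55).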

How the data were processed

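RNA of 12 samples was hybridised to 1-colour Affymetrix rat arrays. The authors deposited 1 table of linear signal intensity per probe set and array, made with GCOS 1.4 per the submitters' processing notes; its detection calls were not used here, and dim signals are understated on the scale of analysis. Each array had been scaled to a common trimmed mean (2% trimmed at each end), as found from the values. Depth does not apply to arrays, so the number of arrays limits the precision. Of 31099 probe sets, 57 controls were left out and 18625 with a mean log2(signal + 16) above the 40th percentile were kept. The probe table gave 20826 probe sets 1 symbol, 436 several and 9780 none; 20758 symbols were matched to RefSeq by gene number. A gene was read from its brightest kept probe set with 1 symbol, which left 9906.

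Groups came from the sample titles. Differences were tested with limma 3.58.1 (lmFit, eBayes with an intensity trend) in R 4.3.3 with Benjamini-Hochberg adjustment over all kept probe sets: TRAP experiments against thrombin experiment on 6 basal arrays, TRAP after PTX against TRAP within the 3 basal groups, and TRAP experiments against thrombin on 6 stimulated arrays. Tested on simulated data for the first comparison, with 200 of 18625 probe sets changed, 71% were recovered at 2-fold and 93% at 4-fold. Of the calls 2.38% were false. Far fewer probe sets changed there than were called in the data. The simulated noise also left out the difference between the 2 TRAP experiments, so these rates need not hold for the data.

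The members and gene lists were chosen with earlier results of these data known. Genes were named by rule: up to 8 called genes with the largest difference per main list, up to 3 per other list, the 12 largest in each direction, and a fixed set of markers. Further members of the lists were named after their values were seen. Alternatives were the pseudocount, filter, centring, quantile normalization, intensity trend, array weights, samples in the fit, the replicate number as a block, and leaving out arrays. Deviations of same-numbered basal arrays correlated at -0.081, 0.057 and -0.216, so the numbers do not pair the samples. Promoters are RefSeq's on GRCr8.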

Additional observations from a re-analysis of the deposited data

Results flagged for a closer look

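The difference between the TRAP experiments and the thrombin experiment was itself compared between stimulated and basal arrays, in 1 limma fit of the 6 groups with an interaction term (adjusted p over 18625 probe sets). The interaction passed for 156 of the 18625 probe sets and for 10 of the 203 named genes. Most named genes were chosen for large basal differences, a choice that favours smaller differences on stimulated arrays. Each value below is the stimulated minus the basal difference in log2. Stimulus and experiment cannot be told apart in the interaction.

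Of these 10 genes, 7 were higher on basal arrays of the TRAP experiments and had a smaller or opposite difference on stimulated arrays. For Myc the interaction was -1.41 (adjusted p = 0.000452), from 2.32 on basal to 0.91 on stimulated arrays. For Ptgs2 it was -1.53 (0.000344), from 1.32 to -0.22, and for the zinc finger factor Klf6 -1.71 (0.000603), from 1.66 to -0.05. Rgs16 gave -1.20 (0.0334), from 3.12 to 1.92, and Nexn -0.86 (0.00397), from 1.77 to 0.91. Chac1, a gene of the integrated stress response, gave -1.60 (0.000603), from 1.25 to -0.35, and Trib3 -1.50 (0.00887), from 1.19 to -0.31.

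The remaining 3 genes were lower on basal arrays. Tiparp, a target of the aryl hydrocarbon receptor, gave 1.77 (1.85e-05), from -2.21 to -0.44. Bambi, a receptor without kinase that blunts BMP signals, gave 1.26 (0.0114), from -1.33 to -0.08, and the interferon factor Irf1 gave 1.26 (0.00304), from -0.78 to 0.48. Groups of 2 arrays are too small for a search for single deviating arrays.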

How the results depend on the processing

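The count of 7426 probe sets that differed between basal arrays stayed within 1.5 times under every alternative run, with 4978 to 7187 on leaving out 1 array and 6887 with a replicate block. Of those called, 54% were higher, against 48.2% after median centring (3565 higher, 3827 lower) and 48.1% after quantile normalization. Of 191 named genes called, 162 kept the call under each of the settings run on them (up to 20), 29 lost it under at least 1 and 0 reversed. The 158 probe sets between the TRAP and TRAP after PTX experiments were 76 with no filter, 19 with no intensity trend, 8 with all 12 arrays in 1 fit, and 22 to 211 on leaving out 1 array. A replicate block gave 120 there, and a crossed block, chosen after seeing the data, 118. The 8015 of the stimulated arrays were 5046 to 7977 on leaving out 1 array, 7245 with a replicate block and 8019 without TRAP replicate 1 and TRAP after PTX replicate 2, also chosen after seeing the data. The block changed no other count by over 1.5 times.

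Of named genes that were not called, 6 changed sign under at least 1 setting. Myog (-0.01) was 0.00 with a pseudocount of 64, 0.03 without thrombin replicate 2, 0.09 without either TRAP replicate and -0.12 without PTX replicate 2. Mgp (-0.05) was 0.20 without thrombin replicate 1, -0.30 without replicate 2 and 0.03 without either TRAP replicate. Comp (-0.02) was -0.28 without thrombin replicate 1, 0.24 without replicate 2, 0.08 without TRAP replicate 2 and 0.03 without PTX replicate 1. In alternatives chosen after seeing the data, leaving out both TRAP arrays gave 0.30 for Myog, 0.20 for Mgp, 0.09 for Comp and, for C3 (-0.93), 0.54 (adjusted p = 0.0189). Leaving out both PTX arrays gave -0.09 for Ccl2 (1.20) and -0.63 for Saa3 (1.19; adjusted p = 0.0474 without those arrays). The cause was not tested. Arrays of 2 per experiment and dim probe sets limit what could be detected.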

Other observations

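Lists outside the phenotype themes also differed between unstimulated cells of the experiments, where 20.1% of all genes were higher and 19.2% lower. Genes of cholesterol synthesis and uptake had 10 higher and 2 lower of 16 tested (median 0.41), or 5 higher without thrombin replicate 1. The lower ones were Insig1 (-0.71), which holds back the pathway's activators, and Stard4 (-0.70), a sterol carrier. Genes of the integrated stress response had 11 higher and 4 lower of 22 tested (median 0.36), with Asns (-0.64), Slc7a11 (-0.52), Xbp1 (-0.48) and Dnajb9 (-0.41) lower. Genes of hypoxia and glycolysis had 1 higher and 7 lower of 24 tested (median -0.04), such as Ndrg1, at 144 and 155 in the thrombin experiment against 35.5, 33.8, 39.8 and 74.6 (-1.46 ± 0.24). Its groups did not overlap, and the higher gene was the demethylase Kdm3a (0.48).

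Immediate-early genes, which answer handling and growth factors within minutes, had 5 higher and 7 lower of 23 tested (median -0.08). Fosb was at 96.1 and 67.3 against 7.7, 13.4, 19.3 and 27.7 (-1.59 ± 0.27), and Jun (-0.84) and Egr1 (-0.73) were lower as well. The factor Klf2, by contrast, was at 233 and 221 against 747, 857, 943 and 911 (1.85 ± 0.11), and Nr4a3 (0.87), Dusp1 (0.86), Klf6 (1.66) and Hspb1 (0.50) were higher. Of 11 genes often used as references, none was higher and 3 were lower, Hprt1 (-0.59 ± 0.09), Sdha (-0.46 ± 0.10) and Gusb (-0.43 ± 0.09), with a median of -0.18. Sdha was not called without thrombin replicate 1 (adjusted p = 0.0572).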
